A study of Mus musculus with 6 samples.

Results

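The phosphoinositide 3-kinase (PI3K), AKT and mTOR route was examined in the rostral telencephalic primordium of mouse embryos that carried or had lost Dicer, the nuclease that releases mature miRNAs from their precursors. The core was taken by gene symbol as 8 genes, Pik3ca, Pik3r1, Akt1, Akt2, Foxo1, Foxo3, Tsc1 and Mtor, of 55471 genes in the count tables, and all 8 were measured and tested. At E11.5, 3 samples were sequenced from controls and 3 from the Rx-Dicer genotype. Control embryos carried floxed Dicer on both alleles (Dicer F/F) and no Cre, although the genotype field of the labels calls them WT. Rx-Dicer embryos were RxCre-Dicer F/F, in which Cre is driven by regulatory sequences of Rx, a gene of the early forebrain. Cre and wild-type mice were kept on a CD1 background and floxed mice on C57BL/6. In this Cre line recombination is uneven at this age, being strongest in the rostral and ventral telencephalon and weaker in the neocortex, so some cells of a mutant sample may retain Dicer. Whether a library is a single embryo or a pool is not given, and p-values therefore measure the spread between these samples only.

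PI3K is a lipid kinase that receptors for insulin and growth factors activate at the membrane through adaptors such as Irs2. Its catalytic subunit Pik3ca is held and recruited by the regulatory subunit Pik3r1, and its lipid product recruits the kinases Akt1 and Akt2. AKT phosphorylates the transcription factors Foxo1 and Foxo3, which keeps them out of the nucleus, and it inhibits the complex of Tsc1 and Tsc2, a brake on the small GTPase Rheb. Rheb activates Mtor, the kinase of the complexes mTORC1 and mTORC2, which sets protein synthesis and growth. Most steps of this route work by phosphorylation, which RNA counts do not measure.

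Because Dicer makes the miRNAs that pair with 3′ UTRs, seed matches of the core members are shown before their levels. In small RNA-seq at E11.5 the paper found few mature miRNAs significantly lowered in the mutants, most of them of the let-7 family. Whether each miRNA searched here was lowered in these samples was not examined. Of 24 miRNAs looked up, 23 matched a mature sequence of RefSeq (GRCm38.p6), all but miR-124-3p, and they fell into 14 seed groups. The mature sequences of miRNAs whose matches are printed below are given with the seed, bases 2 to 8, in capitals. The let-7 group of 9 miRNAs, miR-98-5p included, shares the seed of let-7a.
mmu-let-7a-5p: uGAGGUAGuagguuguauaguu
mmu-let-7i-5p: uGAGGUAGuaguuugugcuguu
mmu-miR-9-5p: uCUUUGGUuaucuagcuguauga
mmu-miR-182-5p: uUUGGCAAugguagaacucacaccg
mmu-miR-99a-5p: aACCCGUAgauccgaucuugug
mmu-miR-100-5p: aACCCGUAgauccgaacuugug

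A 7-base match is the reverse complement of the seed, read on the transcript strand, and an 8-base match adds an A after it. The let-7 match CTACCTC occurred in 8.96% of the 3′ UTRs of 20954 genes, and its 8-base form in 3.02%. Among the core members Akt1, Akt2 and Tsc1 held a single 7-base let-7 match each and none held the 8-base form. The windows below, from the GENCODE transcripts of GRCm38, show the matched bases in capitals, and the windows of Irs2 and Fnip1 are set beside them because both carry the 8-base form.
Akt1, chr12:112654529-112654535, minus strand: actgtgggcagcagcCTACCTCc
Akt2, chr7:27640311-27640317, plus strand: aggacacgttcctgcCTACCTCt
Tsc1, chr2:28687830-28687836, plus strand: tacccctctgccccaCTACCTCt
Irs2, chr8:10986528-10986535, minus strand: aaaactaccacagtcCTACCTCA
Fnip1, chr11:54516749-54516756, plus strand: tttcaatatactctaCTACCTCA

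Foxo3 held 8-base matches to miR-9-5p and miR-182-5p, the second in 2 copies, and Mtor held a 7-base match to the seed that miR-99a-5p and miR-100-5p share. The miR-9-5p word ACCAAAG occurred in 12.2% of all 3′ UTRs and the miR-182-5p word TTGCCAA in 10.9%. The miR-99a-5p word TACGGGT occurred in 1.09%. Other members held 8-base matches too: Tsc1 to miR-92a-3p, and Pik3ca to miR-92a-3p and miR-96-5p. Foxo1 held them to miR-125b-5p, miR-182-5p and miR-96-5p. The log2 fold changes of Tsc1, Pik3ca and Foxo1 were 0.01, 0.09 and 0.25, and none was called. The windows of Foxo3 are shown because it had the largest difference between genotypes among the members. That of Mtor is shown because its word is the rarest of the 14 searched.
Foxo3, miR-9-5p, chr10:42183349-42183356, minus strand: aacctgataccttgtACCAAAGA
Foxo3, miR-182-5p, chr10:42186251-42186258, minus strand: tacagagaaaaccctTTGCCAAA
Foxo3, miR-182-5p, chr10:42185432-42185439, minus strand: ctcagcctctgcccgTTGCCAAA
Mtor, miR-99a-5p and miR-100-5p, chr4:148557149-148557155, plus strand: tgggtaactgagaaaTACGGGTt

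The members differed widely in 3′ UTR length, which sets how often a word occurs. It ran from 823 bases in Mtor and 877 in Akt1 to 5655 in Pik3ca and 6240 in Foxo1, against a median of 954.5 over all genes. Foxo1 held words of 7 of the 14 seed groups, Tsc1 of 5 and Akt1 of 2. In 3′ UTRs of a length like that of Foxo3, the miR-9-5p word occurred in 34.2% and the miR-182-5p word in 31.1%. At the length of Mtor the miR-99a word occurred in 0.760%.

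Libraries held 34471501 to 48373468 counts on genes, and the ranges of the genotypes overlapped. Reads that fell on no annotated gene made up 10.75% in Rx-Dicer 2 and 6.79 to 8.32% in the other libraries. Normalised counts below are counts divided by DESeq2 size factors. Markers of telencephalon were present in every library and their sums overlapped between genotypes, as did summed neuron, mesenchyme, endothelium and erythroid markers. No single marker of these lists was called. Still, 1 telencephalon marker lay wholly above the controls and 1 neuron marker wholly below. Nes and Elavl3 were lower at an unadjusted DESeq2 p under 0.05. Hypothalamic markers summed to 199 to 420 normalised counts in controls and to 902 to 2044 in Rx-Dicer samples, and of the 4 tested Otp was called higher and Pomc lower. Microglial markers summed to 592 to 800 and to 754 to 2130, and 3 of the 5 (Csf1r, Cx3cr1 and Fcgr1) were called higher. In bulk tissue, a change in the number of cells of a type and a change in RNA per cell cannot be told apart. Dicer1, the targeted gene, had 6355, 7070 and 6270 normalised counts in controls against 4777, 7002 and 4644 in Rx-Dicer samples. Counts over the whole gene include exons outside the floxed segment. On this scale Rx-Dicer 2 sat among the controls, and Dicer1 differed by -0.26 on the log2 scale with it (DESeq2 adjusted p = 0.567) and by -0.47 without it (adjusted p = 0.000881). Rx-Dicer 2 had the highest hypothalamic marker sum (2044), and it lay with the other Rx-Dicer libraries for Irs2 (3009, against 1463 to 1733 in controls). For the core and the lists of the route below, calls that changed when Rx-Dicer 2 was left out are given with both adjusted p-values.

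To ask whether the core changed in abundance when Dicer was deleted, the members were read from a DESeq2 fit over all genes. Calls needed an adjusted p under 0.05 together with a log2 fold change beyond 0.32 in size. None of the 8 members was called, against 502 of 17128 genes tested, or 2.93% (1.75% higher and 1.18% lower). Only Foxo3 had an unadjusted p under 0.05, as did 13.1% of genes tested. edgeR's quasi-likelihood test called no member either and 0.0446% of genes, 8 in all, and Foxo3 was again the only member with an unadjusted p under 0.05. The median log2 fold change of the members was 0.07, and that of all genes tested was 0.00, with 6 of 8 members above 0.

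**Figure D1:**
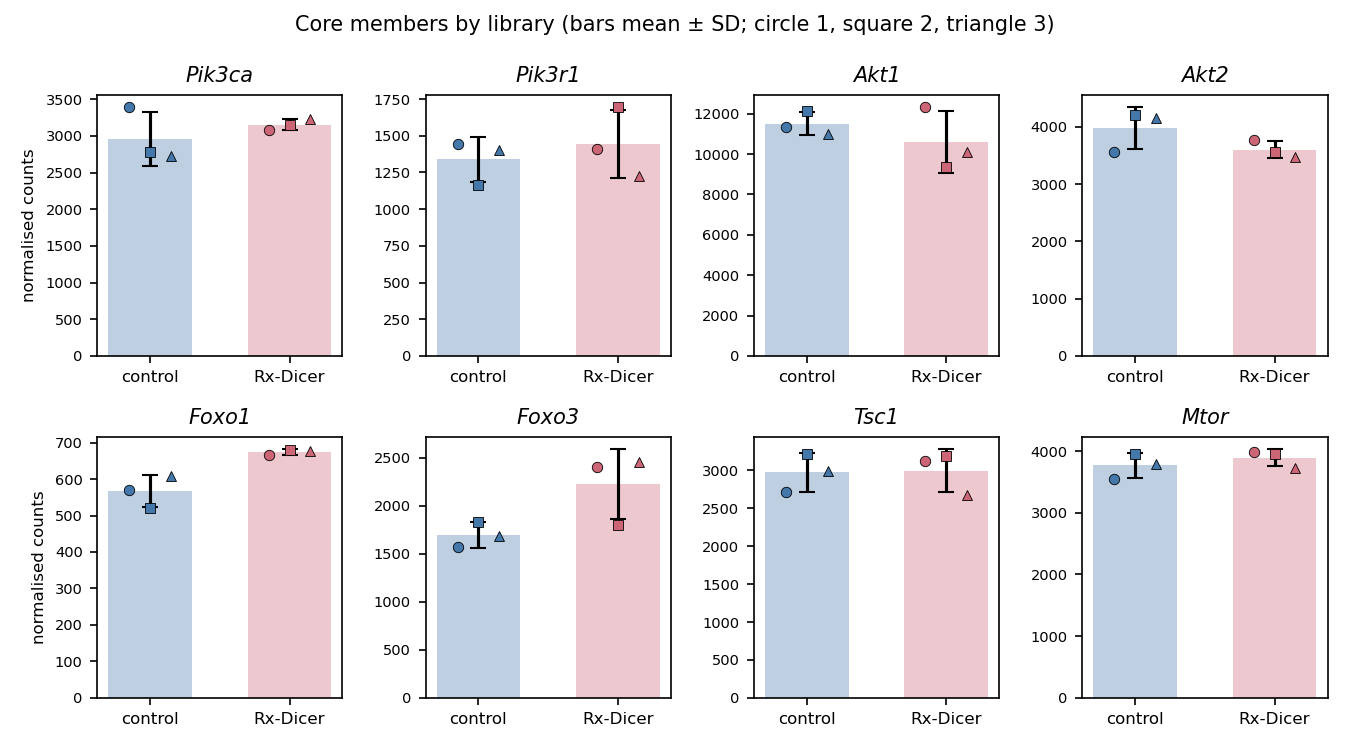
Normalised counts (y axis, from 0) of the 8 core members in 3 control (blue) and 3 Rx-Dicer (red) libraries, with bars at the mean and error bars of 1 SD; circles, squares and triangles mark replicates 1, 2 and 3. On this scale only the Foxo1 values of the genotypes do not overlap, and for Foxo3 the Rx-Dicer 2 library (1802) lies within the control range.

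Pik3ca (ENSMUSG00000027665, chromosome 3, 32397671 to 32468486, plus strand), the catalytic subunit of PI3K, had 3387, 2778 and 2721 normalised counts in controls against 3077, 3143 and 3226 in Rx-Dicer samples. The control 1 library was above all others, and the groups overlapped. It differed by 0.09 ± 0.13 on the log2 scale (Rx-Dicer over control, ± SE), with a 95% interval of 0.89- to 1.27-fold and a DESeq2 adjusted p of 0.895. Pik3r1 (ENSMUSG00000041417, chromosome 13, 101680563 to 101768217, minus strand), which encodes the regulatory subunits p85 alpha and its shorter forms, had 1446, 1165 and 1406 in controls against 1412, 1693 and 1229 in Rx-Dicer samples. The Rx-Dicer 2 library was the highest and control 2 the lowest. Pik3r1 differed by 0.11 ± 0.16, with an interval of 0.87- to 1.34-fold and an adjusted p of 0.896, and it was -0.02 without Rx-Dicer 2.

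The AKT kinases had slightly lower means in Rx-Dicer samples, within the spread. Akt1 (ENSMUSG00000001729, chromosome 12, 112653821 to 112674884, minus strand) had 11347, 12147 and 11012 normalised counts in controls against 12307, 9358 and 10104 in Rx-Dicer samples. The Rx-Dicer 1 library was above all controls and the other Rx-Dicer libraries below them. Akt1 had a log2 fold change of -0.12 ± 0.13, with an interval of 0.77- to 1.10-fold and a DESeq2 adjusted p of 0.842, and it was -0.03 without Rx-Dicer 2. Akt2 (ENSMUSG00000004056, chromosome 7, 27591552 to 27640826, plus strand), the paralog best known for its part in insulin-driven glucose uptake, had 3562, 4210 and 4160 in controls against 3775, 3567 and 3468 in Rx-Dicer samples. Control 1 was at the level of the Rx-Dicer libraries. For Akt2 the log2 fold change was -0.14 ± 0.12, with an interval of 0.77- to 1.07-fold and an adjusted p of 0.735.

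The FOXO factors had the largest positive differences of the core. Foxo3 (ENSMUSG00000048756, chromosome 10, 42181841 to 42276755, minus strand) had 1568, 1831 and 1686 normalised counts in controls against 2404, 1802 and 2456 in Rx-Dicer samples. Rx-Dicer 1 and 3 lay above every control and Rx-Dicer 2 lay among them. On the TPM scale used further on, Rx-Dicer 2 (16.1) also lay above the controls (12.5 to 14.6). Foxo3 differed by 0.39 ± 0.15 on the log2 scale. That is 1.31-fold, with an interval of 1.06- to 1.61-fold, a DESeq2 p of 0.0111 and an adjusted p of 0.170. Without Rx-Dicer 2 it was 0.52, with a DESeq2 adjusted p of 0.00110, and Foxo3 was called. Foxo1 (ENSMUSG00000044167, chromosome 3, 52268336 to 52353221, plus strand) had 570, 520 and 609 in controls against 665, 680 and 676 in Rx-Dicer samples. All Rx-Dicer values lay above all control values, as they did for 8.55% of genes tested (10.7% lay wholly below). In TPM the groups overlapped, with Rx-Dicer 3 (4.33) below control 3 (4.47). Foxo1 had a log2 fold change of 0.25 ± 0.14, with an interval of 0.98- to 1.44-fold and an adjusted p of 0.470.

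Tsc1 and Mtor stand at the end of the route. Tsc1 (ENSMUSG00000026812, chromosome 2, 28641228 to 28691167, plus strand), the subunit that stabilises Tsc2, had 2712, 3221 and 2992 normalised counts in controls against 3118, 3195 and 2679 in Rx-Dicer samples. The groups covered the same range. For Tsc1 the log2 fold change was 0.01 ± 0.13, with an interval of 0.84- to 1.20-fold and a DESeq2 adjusted p of 0.993. Mtor (ENSMUSG00000028991, chromosome 4, 148448611 to 148557683, plus strand) had 3551, 3959 and 3792 in controls against 3990, 3946 and 3733 in Rx-Dicer samples. Mtor differed by 0.05 ± 0.11 on the log2 scale, with an interval of 0.89- to 1.20-fold and an adjusted p of 0.951. For Tsc1 and Mtor, changes beyond 1.20-fold in either direction thus lay outside the interval. The sign of the smallest differences depended on scaling: with a correction for gene length and GC content, the log2 fold changes of Pik3ca, Pik3r1, Tsc1 and Mtor turned to -0.08, -0.02, -0.08 and -0.01.

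**Figure D2:**
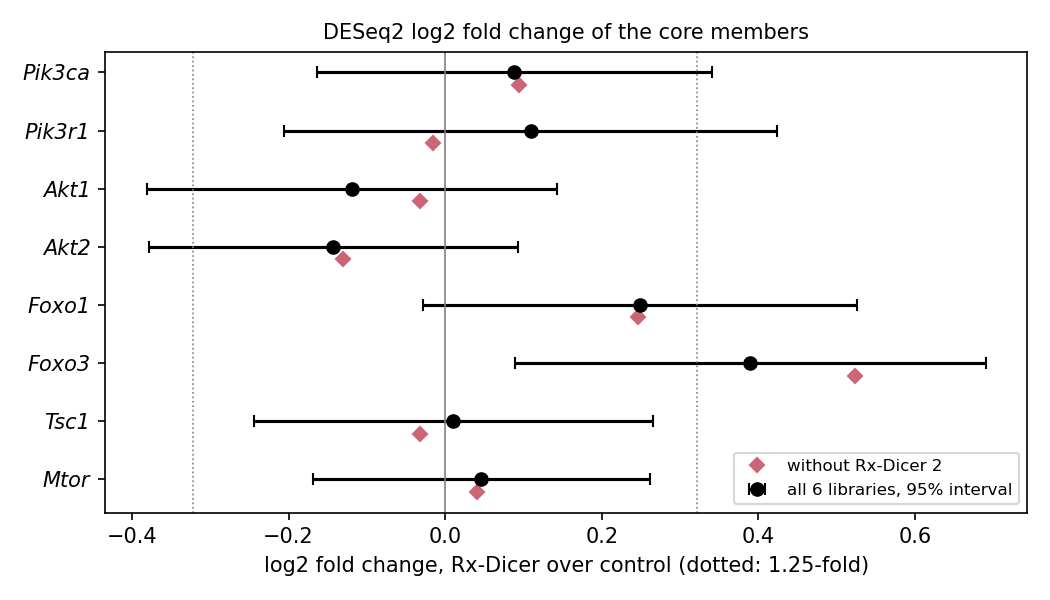
DESeq2 log2 fold change, Rx-Dicer over control (x axis), of the core members, with black points and 95% intervals from all 6 libraries, red diamonds from the fit without Rx-Dicer 2, and dotted lines at the fold minimum of 0.32. Only the Foxo3 interval, 0.09 to 0.69, lies wholly above 0, and leaving out Rx-Dicer 2 moves Foxo3 from 0.39 to 0.52.

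Ratios within a library do not depend on its scaling. The log2 ratio of Foxo3 to Foxo1 averaged 1.58 in controls (SD 0.20, n = 3) and 1.71 in the Rx-Dicer group (SD 0.26, n = 3; exact two-sided permutation test, p = 0.80). Pik3r1 over Pik3ca was -1.14 ± 0.17 and -1.14 ± 0.25 (exact permutation p = 1.0), Akt2 over Akt1 was -1.53 ± 0.13 and -1.55 ± 0.16 (exact permutation p = 0.80), and Tsc1 over Mtor was -0.34 ± 0.05 and -0.38 ± 0.09 (exact permutation p = 0.60). Adjusted over the 4 ratios, every p was 1.0, and the smallest p that 3 against 3 samples allow is 0.1.

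Levels were compared between members as TPM, which divides counts by exon length and brings every library to the same sum. Akt1 was at the top with 172 ± 5.95 TPM in controls and 161 ± 28.6 in Rx-Dicer samples, followed by Akt2 with 34.3 ± 3.71 and 31.6 ± 4.03. Mtor had 22.9 ± 1.5 and 24.1 ± 3.18, and Pik3ca 19.98 ± 2.17 and 21.6 ± 1.89. Foxo3 had 13.7 ± 1.11 and 18.2 ± 2.13 TPM, Tsc1 15.4 ± 1.42 and 15.9 ± 3.0, Pik3r1 8.17 ± 1.05 and 9.05 ± 2.31, and Foxo1 4.02 ± 0.43 and 4.86 ± 0.50. Over all 6 libraries the order of Akt1, Akt2 and Mtor, and of Pik3ca above Foxo3 and Tsc1 above Pik3r1 above Foxo1, held in every library. Mtor exceeded Pik3ca in 5 of 6, all but control 1, and the ranges of these neighbours overlapped. Tsc1 exceeded Foxo3 in all 3 controls and in Rx-Dicer 2, and Foxo3 exceeded Tsc1 in Rx-Dicer 1 and 3. This difference in order between genotypes was not tested.

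The other FOXO factors put Foxo1 and Foxo3 in context. Among FOXO factors Foxo4 held the largest share of summed TPM, 73.8 ± 2.24% in controls and 70.9 ± 2.85% in Rx-Dicer samples. The Foxo3 share was 15.2 to 17.1% in controls and 18.5 to 19.2% in Rx-Dicer libraries, without overlap. In Rx-Dicer 2 this share stood beside a Foxo3 normalised count within the control range (1802) and the lowest Foxo4 count of the 6 libraries (3280). These shares were computed after the values were seen and were not tested.

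**Figure D3:**
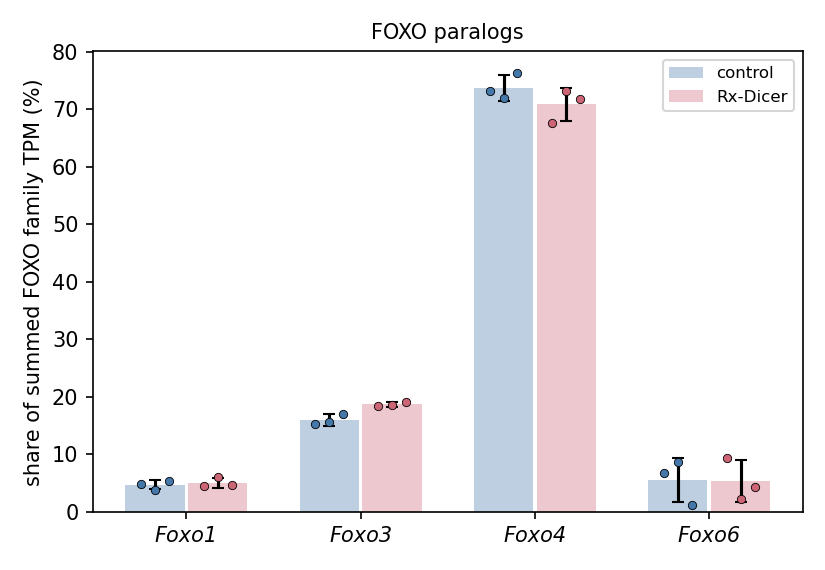
Share of summed FOXO TPM (y axis, percent, from 0) taken by each FOXO paralog in control (blue) and Rx-Dicer (red) libraries, with bars at the mean, error bars of 1 SD and points for libraries. The Foxo3 share is 15.98 ± 1.0% in controls and 18.7 ± 0.40% in Rx-Dicer samples, and the Foxo6 share varies most between libraries.

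Around the core, 98 other genes of the route were taken from 11 lists, some genes standing in more than 1 list, and 96 were tested. DESeq2 called 7 of them higher in Rx-Dicer samples (7.29%, against 1.75% of all genes tested) and none lower. The lists were written with earlier results of these data known, and they hold Irs2, which the paper reported as raised. This share is therefore no test of the route. The median log2 fold change was 0.08. At an unadjusted DESeq2 p under 0.05 stood 25 of the 96, 19 higher and 6 lower, against 13.1% of all genes tested in either direction. Rx-Dicer values lay wholly above control values for 22 genes and wholly below for 10, where 8.55% and 10.7% of all genes tested lay so, and the count below is thus near the background. With edgeR, Bcl2l11 alone was called. The other 6 calls were thus made by DESeq2 alone. Without Rx-Dicer 2 DESeq2 called 10 genes, all higher. Single libraries moved the count: without control 2 it was 4, all higher, and without Rx-Dicer 1 it was 11, 7 higher and 4 lower.

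**Figure D4:**
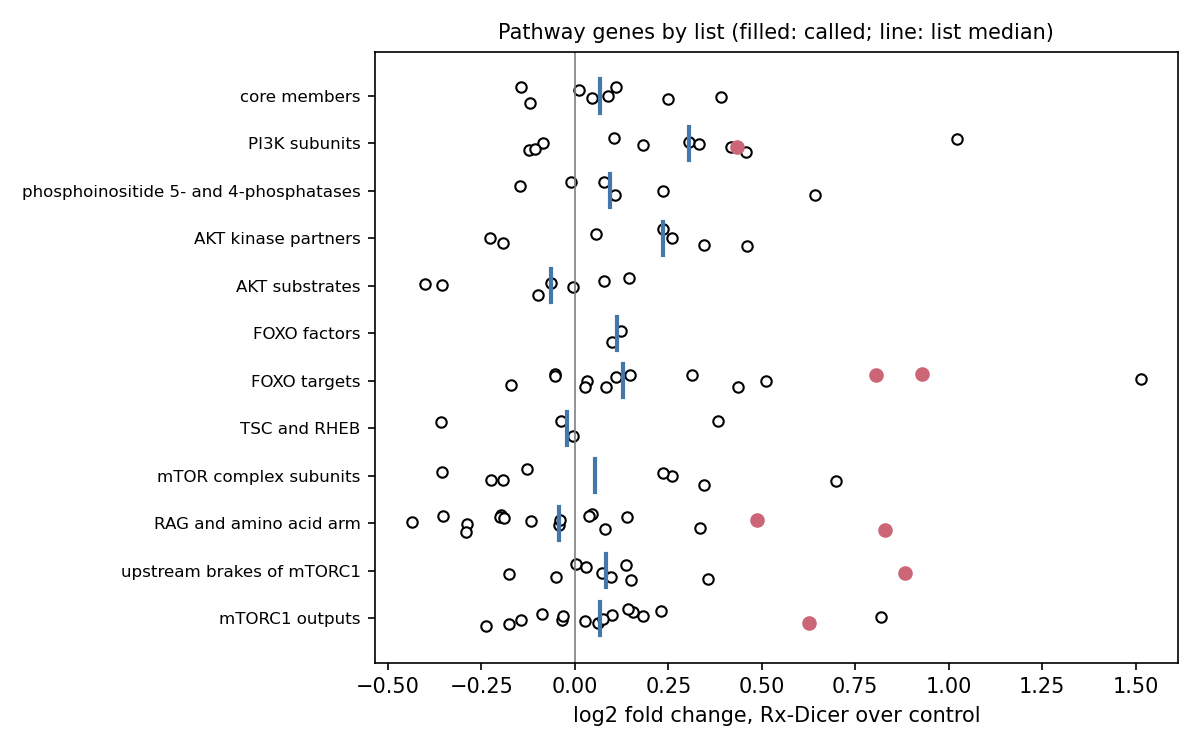
DESeq2 log2 fold change, Rx-Dicer over control (x axis), of each tested gene in the core and in the 11 other lists (rows), with filled red points for called genes, open points for others and a blue line at the list median; vertical jitter has no meaning, and a gene in 2 lists is drawn in both. All filled points lie to the right of 0, from 0.43 for Pik3r3 to 0.93 for Bcl2l11.

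Among PI3K subunits 1 of 11 tested was called. Pik3r3, a regulatory subunit of the same class as Pik3r1, had 3121, 2885 and 3439 normalised counts in controls against 4212, 4256 and 4286 in Rx-Dicer samples. All Rx-Dicer libraries lay above all controls and close together. Pik3r3 was 1.35-fold higher (log2 0.43 ± 0.12; adjusted p = 0.0142 by DESeq2 and 0.134 by edgeR). The call was lost in 6 of 20 alternative fits, among them those without control 2 (0.37, adjusted p = 0.0681) and with the length and GC correction (0.34, adjusted p = 0.0947). The leukocyte subunit Pik3cg, named after its values were seen, had 72.1, 73.3 and 83.6 in controls against 226, 81.5 and 157 in Rx-Dicer samples, and was not called with all libraries (1.02, adjusted p = 0.0947). Without Rx-Dicer 2 it was called (1.33, adjusted p = 0.000733). Its highest libraries, Rx-Dicer 1 and 3, were also those with the highest summed microglial markers (2130 and 1493). The lipid phosphatase Inpp5d, also known from leukocytes, had the smallest p of the 5- and 4-phosphatases, with 0.64 ± 0.27 and an adjusted p of 0.228, and was likewise highest in those libraries (339 and 203). The part of microglial RNA in these values was not tested.

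With all libraries, none of 7 partners and 7 substrates of AKT was called by DESeq2 or edgeR, and 2 partners, both higher, and 2 substrates, both lower, had an unadjusted DESeq2 p under 0.05. Phlpp2, a phosphatase that removes an activating phosphate from AKT, had a log2 fold change of 0.46 ± 0.15 and an adjusted p of 0.0506, with 1373 to 1760 normalised counts in controls and 1888 to 2209 in Rx-Dicer samples. Akt1s1 (PRAS40), an AKT substrate that binds mTORC1 and restrains it, had -0.35 ± 0.11 and an adjusted p of 0.0602, with 3822 to 3898 in controls and 2765 to 3241 in Rx-Dicer samples. For both genes the groups did not overlap, and both lay close to the threshold. DESeq2 called Phlpp2 higher in 7 of 20 alternative fits, among them those without Rx-Dicer 2 (adjusted p = 0.0203) and without control 2 (adjusted p = 0.00299). Phlpp2 was not called with the length and GC correction (0.37, DESeq2 adjusted p = 0.215). DESeq2 called Akt1s1 lower in 6, among them those with protein-coding genes alone (adjusted p = 0.0112), with the length and GC correction (adjusted p = 0.0454) and without Rx-Dicer 1 (adjusted p = 0.00580). Akt1s1 was not called without Rx-Dicer 2 (-0.29, DESeq2 adjusted p = 0.0554).

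Of 14 FOXO targets 2 were called. Bcl2l11 (Bim), which promotes apoptosis, had 952, 1071 and 1059 normalised counts in controls against 2088, 1819 and 1956 in Rx-Dicer samples, a difference of 0.93 ± 0.13 on the log2 scale, or 1.90-fold (DESeq2 adjusted p = 4.01e-10; edgeR, 0.0240). Irs2, which is both a FOXO target and the adaptor above PI3K, rose 1.75-fold (DESeq2 adjusted p = 1.36e-07; edgeR, 0.0520). The other 12 did not pass with all libraries, and the median of the list was 0.13. Cdkn1a, named after its values were seen, had the largest log2 fold change of the lists (1.51 ± 0.60, DESeq2 adjusted p = 0.172). Its groups overlapped, with 1218, 676 and 482 normalised counts in controls against 3548, 1159 and 2076 in Rx-Dicer samples. DESeq2 called Cdkn1a higher without Rx-Dicer 2 (1.83, adjusted p = 0.0492) and without control 1. It was also called with the replicate block, with or without the length and GC correction. The paper reported raised p53 pathway genes in this tissue at E11.5. Which regulator set the levels of the genes in this list was not tested. Foxo4, a further FOXO factor, had 0.10 ± 0.14 and an adjusted p of 0.883.

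In the branch from TSC to mTORC1, DESeq2 and edgeR called none of 4 genes of the TSC and RHEB list and none of 8 mTOR complex subunits. In each list 2 genes, 1 higher and 1 lower, had an unadjusted DESeq2 p under 0.05. Tbc1d7, the third subunit of the TSC complex, had 914, 795 and 853 normalised counts in controls against 651, 667 and 679 in Rx-Dicer samples, without overlap, with -0.36 ± 0.13 and a DESeq2 adjusted p of 0.138. In the amino acid arm 2 of 17 genes were called, both higher. Rragd, a GTPase that brings mTORC1 to lysosomes, had 2883, 2421 and 1846 in controls against 5136, 3046 and 4515 in Rx-Dicer samples, or 0.83 ± 0.21 (adjusted p = 0.00628; edgeR, 0.204). The Rx-Dicer 2 library was the closest to the controls, and without it the difference was 1.02. The Rragd call was lost without control 2, control 3, Rx-Dicer 1 or Rx-Dicer 3 (adjusted p from 0.0820 to 0.0955). Fnip1, a partner of folliculin in the same arm, had 1081, 1158 and 1145 in controls against 1449, 1555 and 1739 in Rx-Dicer samples, or 0.49 ± 0.13 (adjusted p = 0.0132; edgeR, 0.134). With the length and GC correction the Fnip1 value was 0.29 and the call was lost (adjusted p = 0.338). The Ragulator subunits Lamtor1 to Lamtor5, which anchor the RAG GTPases and are named after their values were seen, had log2 fold changes of -0.29, -0.35, -0.04, -0.44 and -0.29, none called with all libraries (adjusted p from 0.140 to 0.958). Without Rx-Dicer 1, Lamtor1 (-0.42, adjusted p = 0.0364) and Lamtor2 (-0.44, adjusted p = 0.0127) were called lower. Neither was called with the length and GC correction (-0.33 and -0.21, DESeq2 adjusted p = 0.286 and 0.424). Without Rx-Dicer 2 they were -0.19 and -0.26 and not called (adjusted p = 0.676 and 0.218).

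Among 10 upstream brakes of mTORC1 and 16 of its outputs, 1 gene each was called. Ddit4l (REDD2), a stress-induced inhibitor of mTORC1, had 276, 248 and 329 normalised counts in controls against 613, 400 and 557 in Rx-Dicer samples, or 0.88 ± 0.21 (DESeq2 adjusted p = 0.00288; edgeR, 0.172). Lpin1, a phosphatidate phosphatase that mTORC1 phosphorylates, had 316, 250 and 301 in controls against 492, 468 and 377 in Rx-Dicer samples, or 0.63 ± 0.19 (adjusted p = 0.0363; edgeR, 0.212). For each gene all Rx-Dicer libraries lay above all controls. The Ddit4l call was lost without control 2 (0.79, adjusted p = 0.0644) or Rx-Dicer 3 (0.84, adjusted p = 0.0528). The Lpin1 call was lost in 12 of 20 alternative fits, among them each file alone and the fits without control 2, control 3, Rx-Dicer 1 or Rx-Dicer 2 (adjusted p from 0.0976 to 0.227). Without Rx-Dicer 2 the Lpin1 value was 0.595 (DESeq2 adjusted p = 0.107). Tfeb, a gene of the outputs list named after its values were seen, was not called with all libraries (0.82, DESeq2 adjusted p = 0.117). Without Rx-Dicer 2 Tfeb was called higher (0.99, adjusted p = 0.047).

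The let-7 words of the core were set beside the rest of the route, where over all genes tested 49.9% were above 0 and 2.93% were called. A let-7 match was found in 20 of 106 genes, core included. The 10 tested genes with an 8-base match had a median log2 fold change of 0.28, 9 were above 0 and 2 were called, Irs2 and Fnip1, the Fnip1 call being lost with the length and GC correction. The 3′ UTRs of these 10 ran from 1336 bases in Map4k3 to 7395 in Sesn3, against a median of 954.5 over all genes. The 10 with a 7-base match at most, among them Akt1, Akt2 and Tsc1, had a median of 0.06 with 7 above 0 and none called. The 84 without a match had a median of 0.05 with 49 above 0, and 5 were called. Bcl2l11, Pik3r3, Rragd, Ddit4l and Lpin1 were thus called without a let-7 word in the annotated 3′ UTR used. Each of these genes held a match to another searched seed group. So did every core member, from 2 of the 14 groups in Akt1, let-7 included, to 7 in Foxo1, and none was called with all libraries. The share of all genes with any match was not computed. Bcl2l11, Pik3r3, Lpin1 and Rragd held matches to several such groups. As examples, Bcl2l11 held the 8-base form for miR-9-5p, Pik3r3 and Lpin1 for miR-26a-5p, and Rragd and Ddit4l held a 7-base match to miR-181a-5p. The 8-base forms occurred in 4.12% and 4.17% of all 3′ UTRs, and the miR-181a-5p word in 16.3%. No test was run on the let-7 groups or on these other matches, and the medians were not corrected for gene length or GC content.

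**Figure D5:**
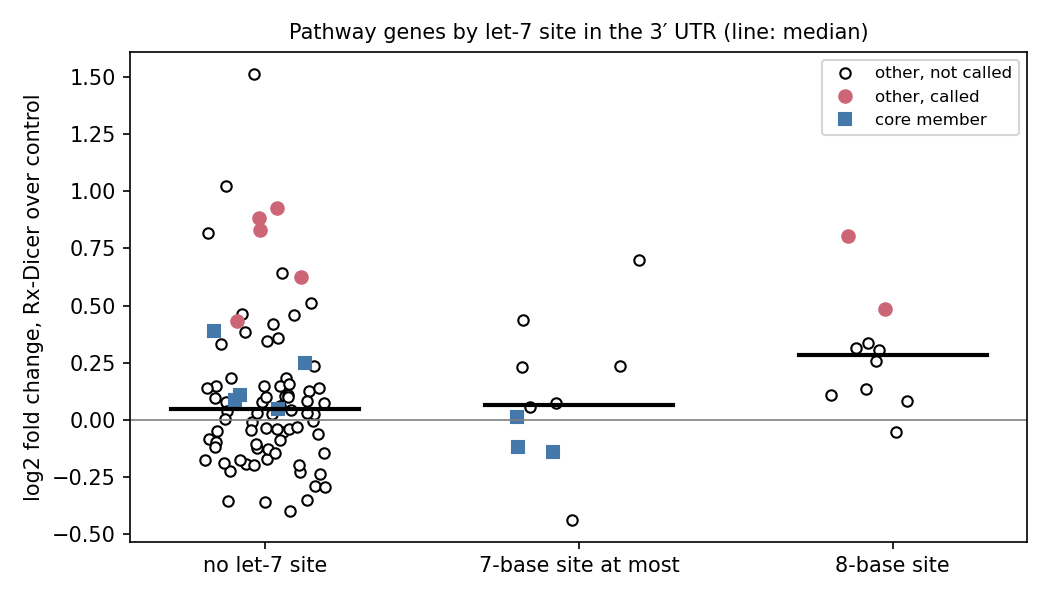
DESeq2 log2 fold change, Rx-Dicer over control (y axis), of 104 tested genes of the route by let-7 match in the annotated 3′ UTR, with blue squares for core members, filled red points for other called genes, open points for the rest and a black line at the median; horizontal jitter has no meaning. The medians, not corrected for gene length or GC content, are 0.05 without a match, 0.06 with a 7-base match at most and 0.28 with an 8-base match.

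Last, the profile of each member over the 6 libraries was set beside those of 104 other genes of the route. By Pearson r of log2 normalised counts, the closest gene was Rragc for Pik3ca (0.93), Inpp4a for Pik3r1 (0.93), Pik3r2 for Akt1 (0.98) and Mlst8 for Akt2 (0.99). It was Pik3r3 for Foxo1 (0.99), Rhebl1 for Foxo3 (0.97), Depdc5 for Tsc1 (0.90) and Pdpk1 for Mtor (0.94). Among the members themselves r ran from -0.94 for Pik3ca with Akt2 to 0.89 for Tsc1 with Mtor. These are descriptions over 6 libraries that differ in genotype, depth and tissue composition, and every gene is read from the same libraries.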

How the data were processed

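RNA-seq was measured in 6 samples, 3 per genotype. Raw counts of reads on genes were deposited, which the authors made with Trim Galore 0.6.5, HISAT2 on GRCm38.p6 and HTSeq 0.12.4 (union mode, reverse strand), per the labels and the study's methods. The 2 files of a sample differed little (chi-square per degree of freedom 1.13 to 1.52, against 22.5 to 32.6 between samples), were taken as repeat runs and were summed. DESeq2 1.42.0 (R 4.3.3) compared genotypes over all genes, with median-of-ratios factors, unshrunken log2 fold change, Benjamini-Hochberg adjustment and independent filtering, and the fit was tested on simulated data. edgeR 4.0.16 (at least 10 counts in 3 samples) was the first alternative. Further fits varied scaling, filters and thresholds, used single files, blocked on replicate number, removed a spline trend on gene length and GC, or dropped a sample. Intervals are the log2 fold change ± 1.96 SE. TPM used exon lengths of the GENCODE annotation, in which 55230 of 55471 identifiers were found; exons of rarely used isoforms lower it. Reads shared by several genes were not counted. Members and lists were chosen with earlier results of these data known. Named genes were the members, Dicer1, Irs2, every called gene of the lists, the gene of smallest p per list, and the closest profile per member; others are said to be named afterwards. Small RNA libraries were not analysed here. The values of 1 gene of the lists are not reported here.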

Additional observations from a re-analysis of the deposited data

How the results depend on the processing

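The count of called members was 0 in all 20 alternatives except the fit without Rx-Dicer 2, where Foxo3 was called (0.52); leaving out each library in turn gave 0 to 1 called members and 0.31 to 0.52 for Foxo3. Akt1, Akt2, Foxo1 and Foxo3 kept their direction in all 20. With the length and GC correction the log2 fold changes of Pik3ca, Pik3r1, Tsc1 and Mtor were -0.0788, -0.0225, -0.0832 and -0.014, and with the replicate block added they were -0.0767, -0.0277, -0.0817 and -0.0141. Leaving out a library gave -0.0153 to 0.213 for Pik3r1, negative without Rx-Dicer 2, and -0.0529 to 0.0849 for Tsc1, negative without control 1, Rx-Dicer 1 or Rx-Dicer 2.

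Called pathway genes outside the core went from 7 to 1 with edgeR, and over fits that left out a library from 4 to 11. Over all genes the tools called 502 and 8. The DESeq2 count was 5 with the replicate block, and edgeR with the block called 0 of these genes, of which 22 had an unadjusted p under 0.05. Same-numbered samples of the genotypes had correlated deviations of 0.29, -0.01 and -0.26, and not every sample correlated best with its own number. Deviations were taken within each genotype, which ties these correlations to each other, so they cannot show or exclude a pairing. The paper compared mutants with control littermates, and whether same-numbered samples share a litter is not known here. The block changed no call of a member.

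The ratio of Pik3r1 to Pik3ca differed by -0.0389 on the log2 scale in the first files, and by -0.113 to 0.136 over fits that left out a library. For Akt2 over Akt1 the second files gave 0.0021, and leaving out a library -0.0889 to 0.0678; for Tsc1 over Mtor it gave -0.0744 to 0.0128. The cause of these changes was not tested. With 3 samples per genotype, the intervals of the members limit what could be seen.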
